A study of Mus musculus with 38 samples.

Results

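Creatine and adenylate energy transfer was followed in 9 genes of the mouse left ventricle: Ckm, Ckb, Ckmt2, Slc6a8, Gamt, Gatm, Ak1, Ak3 and Ak4. They were chosen by name for their function, and all 9 were found among the 29564 genes of the deposited tables and passed the filter on low counts, which left 13765 genes. RNA came from 38 wild-type C57BL6 mice, with 1 library per mouse. The non_failing group (n = 8) ate standard chow and was labelled as given vehicle. The other mice had heart failure with preserved ejection fraction (HFpEF) induced by a high-fat diet with L-NAME, a blocker of nitric oxide synthesis, and were dosed by mouth once a day. Of these, 8 took vehicle (HFpEF+Veh), 11 took TYA-018, which inhibits the deacetylase HDAC6 (HFpEF+TYA-018), and 11 took empagliflozin, which inhibits the glucose transporter SGLT2 (HFpEF+SGLT2i). The labels give the sex as female and the methods of the study as male, and the methods give an age at purchase for C57BL/6J mice but no age at sampling for these groups. Libraries are named by mouse number.

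Creatine kinases move a phosphate between ATP and creatine. In heart muscle the mitochondrial isoform, Ckmt2, charges creatine where ATP is made, and the cytosolic isoforms, Ckm of muscle and Ckb of brain and other tissues, return the phosphate to ADP where ATP is used. The heart makes little creatine itself and takes it up through Slc6a8, whereas Gatm and Gamt catalyse the successive steps of creatine synthesis, mainly in kidney and liver. Adenylate kinases turn ADP into ATP and AMP: Ak1 works in the cytosol, and Ak3, which uses GTP, and Ak4 sit in the mitochondrial matrix.

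The libraries held about 21451600 to 59280400 counts each. All 7 cardiomyocyte markers were detected in each group, with summed levels from 19245 to 37469 CPM (counts relative to the TMM-scaled library size), and medians of 30646 CPM in non_failing, 25338 CPM in HFpEF+Veh, 29663 CPM in HFpEF+TYA-018 and 27231 CPM in HFpEF+SGLT2i. In whole tissue, fewer cells of a type and less RNA per cell cannot be told apart. A pair of vehicle libraries stood apart by markers of other tissues. In V2523 the 8 hepatocyte markers summed to 1859 CPM. The other vehicle mice reached 44.5 CPM or less, and the further groups had 31.6 to 456 CPM in non_failing, 1.56 to 4.95 CPM in HFpEF+TYA-018 and 2.24 to 16.1 CPM in HFpEF+SGLT2i. In V2532 the 8 fast skeletal muscle markers summed to 183 CPM. No other vehicle mouse exceeded 19.3 CPM, and the further groups had 10.7 to 19.6 CPM in non_failing, 4.79 to 17.5 CPM in HFpEF+TYA-018 and 8.86 to 17.8 CPM in HFpEF+SGLT2i. At least 1 vehicle difference of each gene is therefore also given without both libraries, and the part of these tissues in them was not tested.

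The 9 genes ranged in level from rank 62 to rank 10242 of the 29564 genes. Per length and across the 38 libraries, Ckmt2 reached 1037 ± 152 TPM (transcript abundance scaled for length and depth, mean ± SD) and Ckm 978 ± 112 TPM, ranks 62 and 69. These muscle isoforms did not differ in level beyond their spread, since Ckmt2 was the higher in 21 of 38 libraries. Ak1 followed at 153 ± 24.3 TPM, below Ckm in every library. Slc6a8 had 39.2 ± 6.01 TPM and was above Ckb, at 24.6 ± 4.86 TPM, in 37 of 38 libraries. Ckb was above Ak3, at 17.5 ± 2.85 TPM, in 32 of 38. Gamt, with 4.89 ± 1.03 TPM, and Ak4, with 3.99 ± 1.19 TPM, lay close together, Gamt being the higher in 27 of 38. The lowest member was Gatm, the first enzyme of creatine synthesis, at 1.17 ± 0.289 TPM. It was nevertheless counted in all 38 libraries, with 22 to 121 counts.

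**Figure D1:**
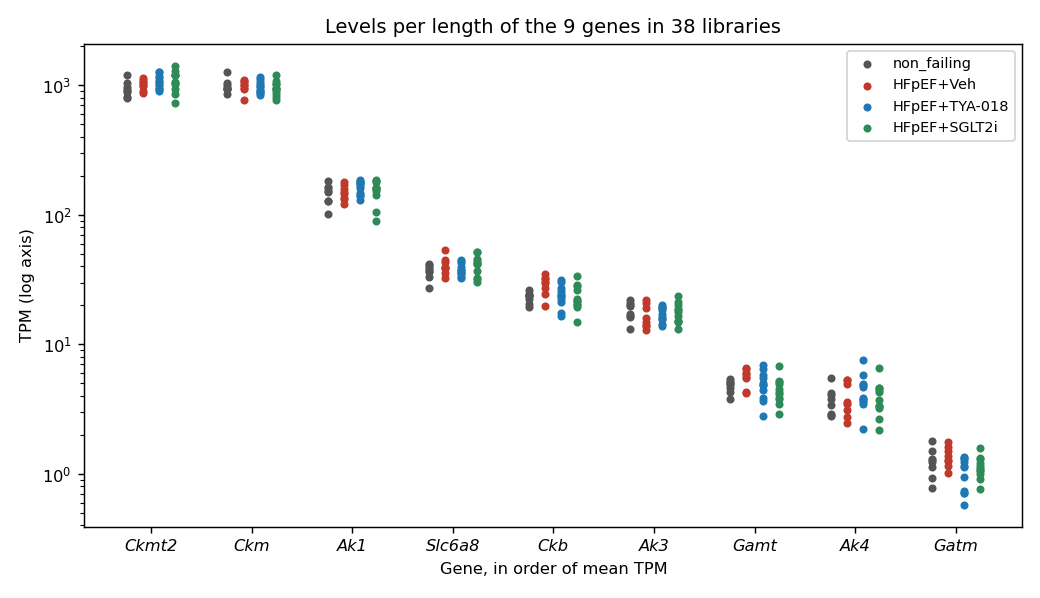
Level per length (TPM, log axis) of the 9 genes, ordered by mean level, with 1 point per library and a colour per group (8, 8, 11 and 11 libraries). Ckmt2 and Ckm overlap near 1037 and 978 TPM, Ak1 sits apart at 153 TPM, and Gatm is lowest at 1.17 TPM.

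Within each enzyme family, 1 or 2 isoforms made up nearly all of the message. Ckm supplied 48.0% ± 4.13 and Ckmt2 50.7% ± 4.29 of the summed creatine kinase TPM (SD, n = 38), which left 1.22% ± 0.290 for Ckb. The Ckb share was 1.18% ± 0.116 in non_failing, 1.42% ± 0.248 in HFpEF+Veh, 1.16% ± 0.227 in HFpEF+TYA-018 and 1.18% ± 0.411 in HFpEF+SGLT2i, with overlapping ranges. Of the 3 adenylate kinases, Ak1 supplied 87.7% ± 1.18, Ak3 10.05% ± 1.05 and Ak4 2.26% ± 0.421. The shares are a description, and no test was made of them.

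The genes lie on separate chromosomes apart from Ak1 and Gatm. On assembly GRCm38, Ckm spans chr7:19404776-19422841 (plus strand), Ckb chr12:111669361-111672338 (minus), Ckmt2 chr13:91853387-91876885 (minus) and Slc6a8 chrX:73673150-73682502 (plus). Gamt spans chr10:80258151-80261012 (minus), Gatm chr2:122594467-122611303 (minus) and Ak1 chr2:32621758-32635058 (plus). Ak3 spans chr19:29020833-29047961 (minus) and Ak4 chr4:101419277-101466995 (plus). All are protein coding in GENCODE release M21. Exons of Ak3 overlap those of Cdc37l1 on the opposite strand, which was at 8.45 TPM. Exons of Ckm and of Ckmt2 also overlap annotated genes on the opposite strand, which were not analysed here. The library kit was stranded, but the strand setting of the quantification is not given in the sources used here. The counts of Ckm and Ckb carried fractions in all 38 libraries (within 0.01 of a whole number in 0 of 38), so some of their reads were divided with other transcripts, as were those of Ak3 in most libraries (12 of 38 whole), whereas Ckmt2, Gamt, Gatm, Ak1 and Ak4 had whole counts throughout.

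The upstream sequences of the 3 creatine kinase genes and of Ak3 are shown because Ckmt2 and Ak3 varied together between mice while Ckb went the other way, as given with the correlations. RefSeq promoter windows on GRCm38.p6 were matched for 8 of the 9 genes, all but Slc6a8, with 4 start sites each for Ak1 and Ak4. Each line is the 250 bases before the start site, 5′ to 3′, and capitals mark every E-box, CANNTG, the motif bound by muscle regulators such as MyoD.
Ckm (chr7:19410844-19411093, plus strand): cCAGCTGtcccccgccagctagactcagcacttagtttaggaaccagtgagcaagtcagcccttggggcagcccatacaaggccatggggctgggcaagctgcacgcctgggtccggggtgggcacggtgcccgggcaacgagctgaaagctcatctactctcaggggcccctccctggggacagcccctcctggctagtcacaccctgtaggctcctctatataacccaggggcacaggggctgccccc
Ckmt2 (chr13:91876886-91877135, minus strand): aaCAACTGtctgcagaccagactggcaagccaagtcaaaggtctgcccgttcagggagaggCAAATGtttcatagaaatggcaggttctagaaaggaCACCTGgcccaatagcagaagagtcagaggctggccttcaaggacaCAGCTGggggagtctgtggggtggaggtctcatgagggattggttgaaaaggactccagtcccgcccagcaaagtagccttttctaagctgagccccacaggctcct
Ckb (chr12:111672339-111672588, minus strand): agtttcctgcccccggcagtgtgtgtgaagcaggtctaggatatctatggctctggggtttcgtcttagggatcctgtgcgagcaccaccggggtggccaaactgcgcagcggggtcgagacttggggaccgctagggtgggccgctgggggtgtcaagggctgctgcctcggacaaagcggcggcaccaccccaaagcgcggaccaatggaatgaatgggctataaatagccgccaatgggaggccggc
Ak3 (chr19:29047962-29048211, minus strand): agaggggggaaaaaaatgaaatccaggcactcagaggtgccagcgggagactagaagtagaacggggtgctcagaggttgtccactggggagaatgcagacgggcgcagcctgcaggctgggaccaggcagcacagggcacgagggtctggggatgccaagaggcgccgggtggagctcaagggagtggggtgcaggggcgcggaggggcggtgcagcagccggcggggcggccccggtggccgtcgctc

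The Ckmt2 window held 4 E-boxes, starting 248, 189, 153 and 107 bases before the start site. Windows with at least 4 made up 3.84% of all 32851 promoter windows of that length, and 66.2% of windows held at least 1. Ckm had 1, 249 bases before the start, and Gatm had 1. The 4 windows of Ak1 held 3, 1, 2 and 1 E-boxes, and 1 of the 4 windows of Ak4 held 1. No E-box occurred in the windows of Ckb, Ak3 or Gamt. AAGGTCA, the half-site of estrogen-related receptors, was found on either strand in 4.08% of all windows and, among the members, only in 1 of the 4 windows of Ak1. TAAAAATA, a core of the MEF2 motif (2.45% of windows), and GCATGCGC, a core of the NRF1 motif (2.26%), were in none of the members' windows. A motif match is a description of the sequence and no evidence of binding.

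To ask whether these genes differ between groups, 6 comparisons were read from 1 edgeR quasi-likelihood model of all 13765 genes, with Benjamini-Hochberg adjusted p-values and calls at an adjusted p under 0.05. No member was called in any of them. In HFpEF+Veh vs non_failing 0 of 9 members were called, where 3.15% of all genes were. In HFpEF+TYA-018 vs HFpEF+Veh 0 of 9 were called against 1.93% of all genes, and in HFpEF+SGLT2i vs HFpEF+Veh 0 of 9 against 0.850%. That last share rested on the hepatocyte-marked library, since 117 genes were called with V2523 and 2 without it. In HFpEF+TYA-018 vs HFpEF+SGLT2i 0 of 9 were called and 0% of all genes, although 1821 genes had an unadjusted p under 0.05 and DESeq2 called 187. Against non_failing, 0 of 9 members were called in HFpEF+TYA-018, with 7.39% of all genes, and 0 of 9 in HFpEF+SGLT2i, with 6.45%. With 9 genes and background rates this low, a count of 0 does not set the members apart from other genes. Members with an unadjusted p under 0.05 numbered 1, 3, 1, 0, 1 and 1 in the same order, where 2185, 2404, 1383, 1821, 3024 and 2703 of all 13765 genes had one. DESeq2 and limma on log2(TPM + 1) also called 0 members in each comparison. The comparisons share groups and are not independent of each other.

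The differences were small. Over 9 genes and 6 comparisons, the 54 fitted log2 fold changes ran from -0.28 (Gatm, HFpEF+TYA-018 vs non_failing) to 0.28 (Ak4, same comparison). The 95% intervals of all 54 lay between -0.63 and 0.63, so changes beyond 0.644-fold or 1.55-fold fall outside them. For Ckm, the most precisely measured gene, they lay between -0.31 and 0.32. The median log2 fold change of the members was 0.019 in HFpEF+Veh vs non_failing, 0.16 in HFpEF+TYA-018 vs HFpEF+Veh, 0.068 in HFpEF+SGLT2i vs HFpEF+Veh and 0.12 in HFpEF+TYA-018 vs HFpEF+SGLT2i. It was 0.11 in HFpEF+TYA-018 vs non_failing and -0.0094 in HFpEF+SGLT2i vs non_failing. The medians of all genes tested lay between -0.0088 and 0.011.

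**Figure D2:**
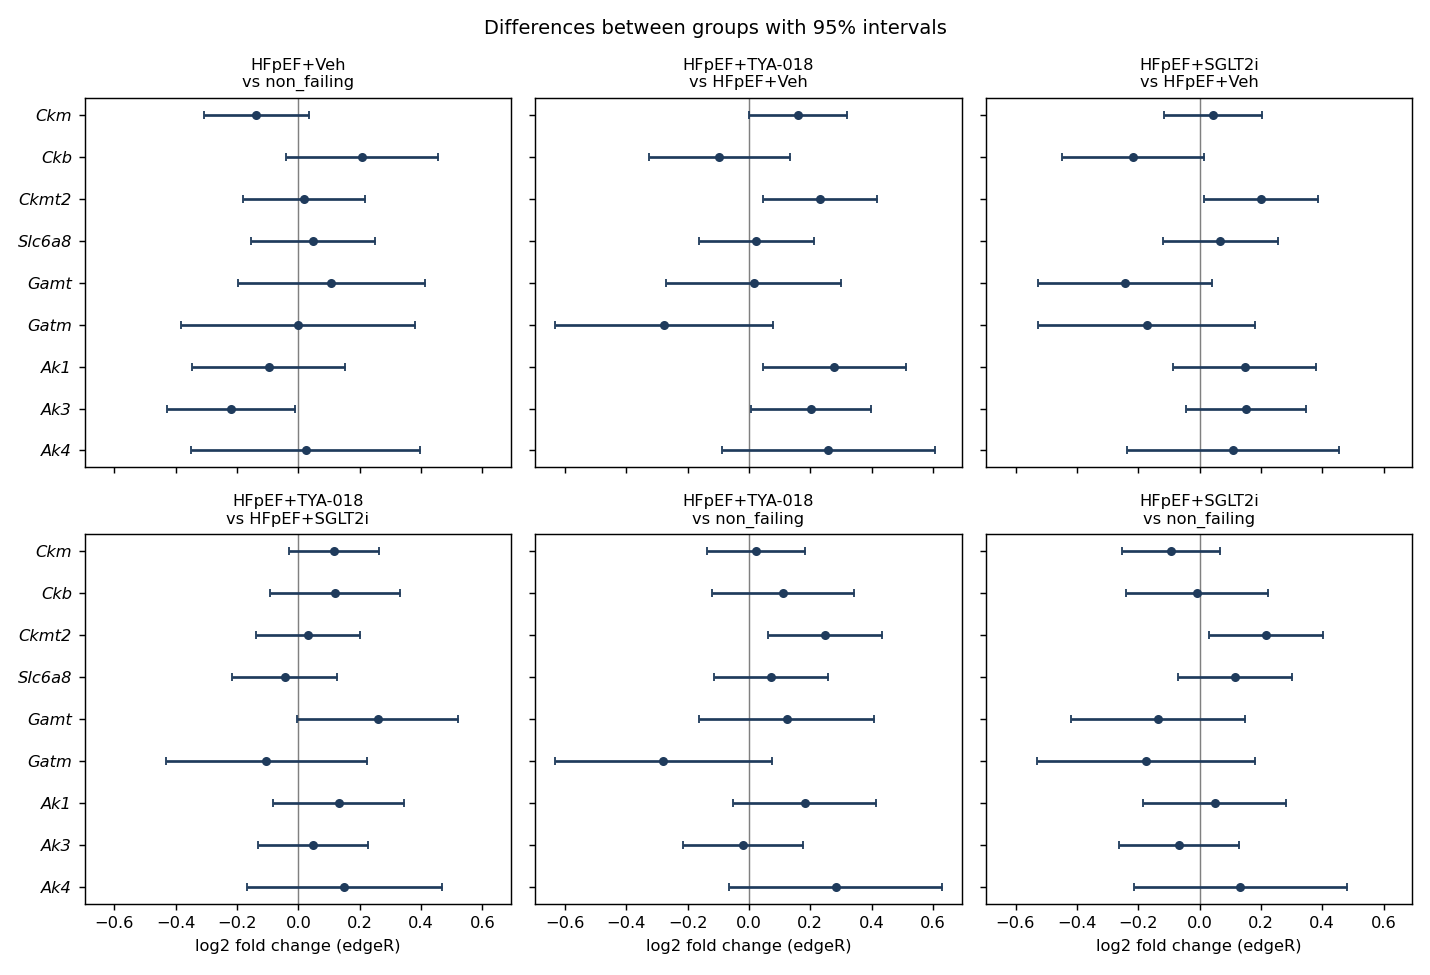
Log2 fold change of each gene in the 6 comparisons, from edgeR, with 95% intervals as bars. The grey line marks no difference. In HFpEF+TYA-018 vs HFpEF+Veh the intervals of Ckmt2, Ak1 and Ak3 lie above 0 before adjustment, and no adjusted p-value is under 0.05.

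Ckmt2, the mitochondrial creatine kinase, had positive log2 fold changes in both treated groups against vehicle and against non_failing mice, and none was called. Its level was lowest at 1268 CPM, median 1552 CPM and highest at 1922 CPM in non_failing, and 1373, 1567 and 1760.45 CPM in HFpEF+Veh. It reached 1588, 1940.1 and 2117 CPM in HFpEF+TYA-018 and 1269, 1853 and 2347 CPM in HFpEF+SGLT2i. On this TMM-scaled level all 11 TYA-018 mice were above the vehicle mean and above the non_failing mean, but the ranges overlapped. On the deposited TPM, 7 of 11 were above the vehicle mean and 8 of 11 above the non_failing mean. The log2 fold change in HFpEF+TYA-018 vs HFpEF+Veh was 0.23 (SE 0.092, interval 0.044 to 0.42, adjusted p = 0.171), and with limma on log2(TPM + 1) it was 0.084 (adjusted p = 0.549), and with library size alone in place of TMM 0.10. Against non_failing it was 0.25 (SE 0.092, adjusted p = 0.0903), and it passed without non_failing V2508 (0.30, adjusted p = 0.0489). In HFpEF+SGLT2i vs HFpEF+Veh it was 0.20 (SE 0.092, adjusted p = 0.445), or 0.10 with limma, with 8 of 11 mice above the vehicle mean. Against non_failing, HFpEF+SGLT2i differed by 0.22 (SE 0.092, adjusted p = 0.166). HFpEF+Veh and non_failing differed by 0.019 (interval -0.18 to 0.22). Without V2523 and V2532, the difference of HFpEF+TYA-018 from vehicle was 0.27 (adjusted p = 0.139). The median sum of cardiomyocyte markers was also above that of the vehicle mice, as given for the libraries, and their part in the Ckmt2 difference was not tested.

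Ckm, the muscle isoform bound at the contractile filaments, ran from 1373 to 1898 CPM in non_failing with a median of 1593 CPM, and from 1106.5 to 1586 CPM in HFpEF+Veh with a median of 1481 CPM. In HFpEF+TYA-018 it ran from 1322 to 1867 CPM, median 1654 CPM, and in HFpEF+SGLT2i from 1207 to 1773 CPM, median 1484 CPM. The 4 ranges overlapped. HFpEF+Veh was lower than non_failing by a log2 fold change of -0.14 (SE 0.085, interval -0.31 to 0.034, adjusted p = 0.443), with 7 of 8 vehicle mice below the non_failing mean. HFpEF+TYA-018 differed from HFpEF+Veh by 0.16 (SE 0.079, interval -0.00058 to 0.32, adjusted p = 0.288). The lowest of all 38 libraries was V2532, and without it and V2523 these differences were -0.073 and 0.10 (adjusted p = 0.631 and 0.494). With limma on log2(TPM + 1) they were -0.010 and -0.0085, so the second changed sign there, and with library size alone in place of TMM it was 0.030.

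Ckb, the isoform of brain and non-muscle cells, had a median of 42.5 CPM in non_failing, with a range from 37.5 to 46.5 CPM. The vehicle mice ranged more widely, from 32.7 to 59.8 CPM with a median of 49.8 CPM. In HFpEF+TYA-018 the range was 33.1 to 55.1 CPM and the median 46.3 CPM, and in HFpEF+SGLT2i it was 26.9 to 59.02 CPM and the median 38.6 CPM. The log2 fold change of HFpEF+Veh against non_failing was 0.21 (SE 0.12, interval -0.041 to 0.46, adjusted p = 0.422) and that of HFpEF+SGLT2i against HFpEF+Veh -0.22 (SE 0.11, interval -0.45 to 0.013, adjusted p = 0.528). The lowest vehicle values were those of V2532 and V2523. Leaving both out moved the differences to 0.32 (adjusted p = 0.0986) and -0.33 (adjusted p = 0.162), neither of which passed.

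Slc6a8, which imports creatine across the cell membrane, was the least variable of the remaining creatine genes. Its medians were 109 CPM in non_failing (100.3 to 132 CPM), 113 CPM in HFpEF+Veh (92.1 to 160.1 CPM), 119 CPM in HFpEF+TYA-018 (100.2 to 139 CPM) and 119.7 CPM in HFpEF+SGLT2i (94.5 to 161 CPM). The groups overlapped almost wholly. Its 6 log2 fold changes lay between -0.044 and 0.12, and their intervals between -0.22 and 0.30. Without V2523 and V2532 its differences were -0.022 for HFpEF+Veh against non_failing, 0.098 for HFpEF+TYA-018 against HFpEF+Veh and 0.14 for HFpEF+SGLT2i against HFpEF+Veh (adjusted p = 0.911, 0.563 and 0.462).

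The enzymes of creatine synthesis were detected at low levels in every group. Gamt, which methylates guanidinoacetate to creatine, had medians of 4.61 CPM in non_failing (4.27 to 5.32 CPM), 5.48 CPM in HFpEF+Veh (3.72 to 5.90 CPM), 5.43 CPM in HFpEF+TYA-018 (2.62 to 7.11 CPM) and 4.14 CPM in HFpEF+SGLT2i (3.04 to 6.002 CPM). The TYA-018 mice spread over more than the range of every other group. Its log2 fold change was 0.26 in HFpEF+TYA-018 vs HFpEF+SGLT2i (SE 0.13, interval -0.0035 to 0.52, adjusted p = 0.387; 0.11 with limma) and -0.24 in HFpEF+SGLT2i vs HFpEF+Veh (SE 0.14, adjusted p = 0.581), or -0.28 (adjusted p = 0.342) without V2523 and V2532. Gatm, which makes guanidinoacetate, had medians of 1.91 CPM in non_failing (1.255 to 2.93 CPM), 1.85 CPM in HFpEF+Veh (1.58 to 2.69 CPM), 1.72 CPM in HFpEF+TYA-018 (0.930 to 2.28 CPM) and 1.75 CPM in HFpEF+SGLT2i (1.26 to 2.44 CPM). HFpEF+TYA-018 differed from HFpEF+Veh by -0.28 (SE 0.18, interval -0.63 to 0.077, adjusted p = 0.422), with 8 of 11 mice below the vehicle mean on CPM and 11 of 11 on TPM, and by -0.35 (adjusted p = 0.290) without V2523 and V2532. At a median of 52.5 counts per library, Gatm gave the widest intervals of the creatine genes. The hepatocyte-marked library V2523 had the highest Gamt of the vehicle mice, at 5.90 CPM, next to 5.76 CPM in another.

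The 3 adenylate kinases had positive log2 fold changes against HFpEF+Veh in both treated groups, none of them called. Ak1 ran from 273 to 442 CPM in non_failing (median 331 CPM), 253 to 381 CPM in HFpEF+Veh (307 CPM), 306 to 458 CPM in HFpEF+TYA-018 (373 CPM) and 201 to 440.0 CPM in HFpEF+SGLT2i (363 CPM). Of the TYA-018 mice, 10 of 11 were above the vehicle mean on CPM and 7 of 11 on TPM, and the groups overlapped. The log2 fold change of HFpEF+TYA-018 against HFpEF+Veh was 0.28 (SE 0.12, interval 0.045 to 0.51, adjusted p = 0.192), and 0.14 with limma on log2(TPM + 1). Without V2523 and V2532, the vehicle libraries with the highest Ak1, it was 0.36 (adjusted p = 0.113). Against HFpEF+SGLT2i it was 0.13 (interval -0.082 to 0.35, adjusted p = 0.664).

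Ak3 had a median of 54.7 CPM in non_failing (48.0 to 70.0 CPM), 45.8 CPM in HFpEF+Veh (40.3 to 61.0 CPM), 52.8 CPM in HFpEF+TYA-018 (47.9 to 68.0 CPM) and 52.3 CPM in HFpEF+SGLT2i (40.4 to 69.3 CPM). In vehicle hearts 6 of 8 mice were below the non_failing mean, and the other two were V2523 at 61.0 CPM and V2532 at 59.7 CPM. The remaining 6 vehicle libraries lay between 40.3 and 52.0 CPM. With all libraries, HFpEF+Veh differed from non_failing by -0.22 (SE 0.10, interval -0.43 to -0.010, adjusted p = 0.286), and by -0.14 with limma. Without V2523 and V2532 the difference was -0.34 (SE 0.11, adjusted p = 0.0424) and passed the threshold, the single such call made by leaving both out. In that fit 916 of 13871 genes were called, against 433 of 13765 with all libraries. Leaving out 1 library at a time gave -0.27 to -0.17 with no call, and over all alternatives the adjusted p ran from 0.0424 to 0.518. HFpEF+TYA-018 was above HFpEF+Veh by 0.20 (SE 0.097, interval 0.0055 to 0.40, adjusted p = 0.269), by 0.33 (adjusted p = 0.0800) without both and by 0.067 with limma. HFpEF+TYA-018 and non_failing differed by -0.019 (interval -0.21 to 0.18).

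Ak4 varied most of all members between mice, with a coefficient of variation of 29.8% in TPM over the 38 libraries. Its medians were 12.5 CPM in non_failing (9.89 to 16.6 CPM), 11.7 CPM in HFpEF+Veh (9.09 to 17.9 CPM), 14.3 CPM in HFpEF+TYA-018 (8.67 to 25.1 CPM) and 13.6 CPM in HFpEF+SGLT2i (8.27 to 23.1 CPM). HFpEF+TYA-018 differed from HFpEF+Veh by 0.26 (SE 0.17, interval -0.089 to 0.61, adjusted p = 0.448), and without V2523 and V2532, the highest vehicle libraries, by 0.44 (adjusted p = 0.166). With library size alone in place of TMM it was 0.13. HFpEF+Veh differed from non_failing by 0.024 (interval -0.35 to 0.40), and by -0.16 without both, and by -0.034 with a length offset, so its sign was not stable.

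**Figure D3:**
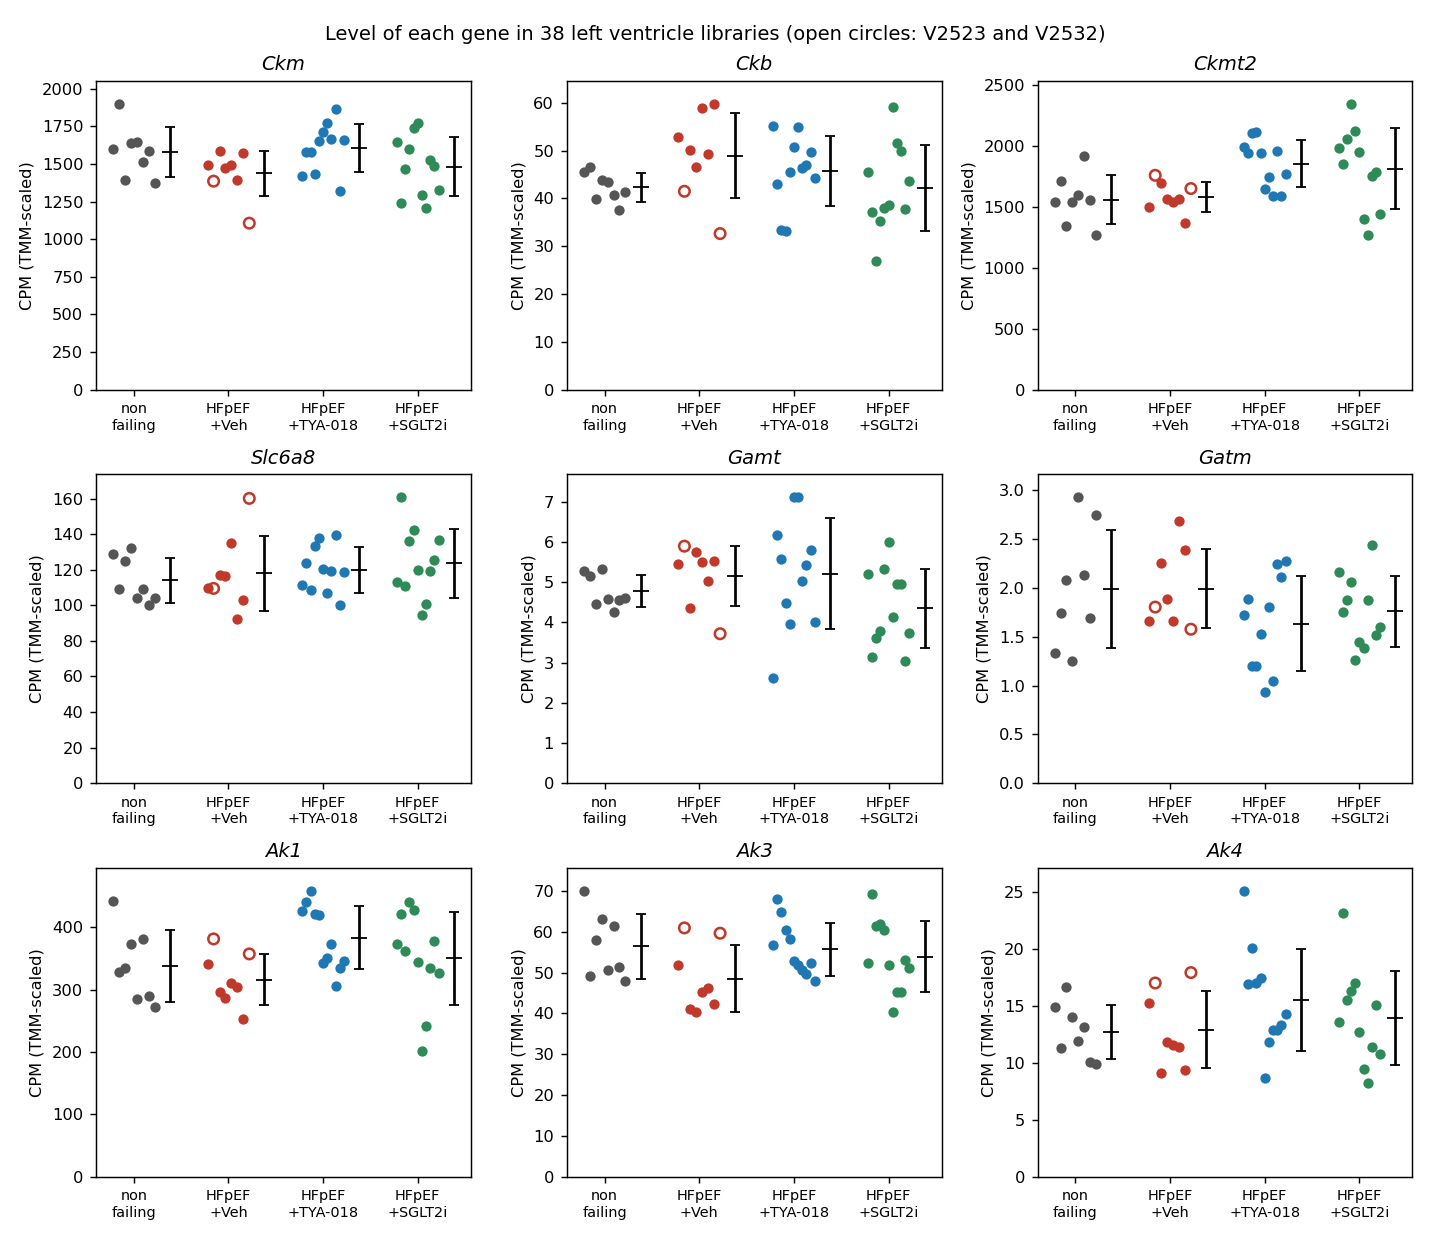
TMM-scaled level (CPM) of each gene in every library, by group, with the group mean and SD as black bars and V2523 and V2532 of HFpEF+Veh as open circles. The open circles are the highest vehicle values of Ak1 and Ak3 (61.0 and 59.7 CPM for Ak3) and the lowest of Ckm and Ckb, and the groups overlap in every panel.

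The surrounding pathway was read from a list of 38 further genes, of which 32 were tested. In HFpEF+Veh vs non_failing 2 of 32 were called, 1 higher and 1 lower, which is 6.25% against the 3.15% of all genes, with a median log2 fold change of -0.060. Slc25a4, the main ADP/ATP carrier of heart mitochondria, was lower by a log2 difference of -0.33 (SE 0.088, adjusted p = 0.0292). It fell from a median of 4929 CPM (3988 to 5885 CPM) to 3904 CPM (3318 to 4439 CPM), with 8 of 8 vehicle mice below the non_failing mean. Prkag2, a regulatory subunit of the AMP-activated protein kinase, rose by 0.32 (SE 0.090, adjusted p = 0.0423), with 8 of 8 mice higher. In HFpEF+TYA-018 vs HFpEF+Veh 1 of 32 was called, 3.12% against 1.93% of all genes, and the median was 0.14. Slc25a4 rose by 0.34 (SE 0.082, adjusted p = 0.0204) to a median of 5182 CPM (3950 to 5592 CPM), with 11 of 11 mice above the vehicle mean. The median sum of cardiomyocyte markers was also lowest in HFpEF+Veh of these 3 groups (30646, 25338 and 29663 CPM in non_failing, HFpEF+Veh and HFpEF+TYA-018), and its part was not tested. Without V2523 and V2532 the Slc25a4 calls stood (-0.36 and 0.38, adjusted p = 0.0220 and 0.0481) and Prkag2 no longer passed (0.29, adjusted p = 0.0711).

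Slc25a4 is 1 of 6 mitochondrial nucleotide and anion transport genes in the list, and it was the 1 called. Their median was -0.19 in HFpEF+Veh vs non_failing and 0.26 in HFpEF+TYA-018 vs HFpEF+Veh, comparisons that share the vehicle mice. With library size alone, both Slc25a4 differences kept their sign, were smaller (-0.26 and 0.21) and no longer passed (adjusted p = 0.110 and 0.0978). The call of the first difference was also lost with no filter on low counts (-0.32, adjusted p = 0.0820). That of the second was lost with limma (0.21, adjusted p = 0.103) and, at nearly the same size, with only the groups compared (0.34, adjusted p = 0.0513). In HFpEF+TYA-018 vs non_failing 3 of 32 were called, 9.38% against 7.39% of all genes, with a median of 0.0085. Shares this near those of all genes do not set the list apart. Nme3, a nucleoside diphosphate kinase, rose by 0.52 (SE 0.10, adjusted p = 0.00123), with 11 of 11 mice above the non_failing mean. Prkag2 rose by 0.27 (SE 0.084, adjusted p = 0.0404), a call that 5 of the 7 alternatives and 16 of 38 fits without 1 library ended. Its difference was then 0.22 with limma and 0.21 with library size alone. It stayed near its reported size with no filter (0.27), a length offset (0.29) and only the groups compared (0.26). Nt5e, the ectonucleotidase that turns AMP into adenosine, fell by 0.61 (SE 0.18, adjusted p = 0.0257), with 10 of 11 mice lower, a call lost without non_failing V2508 or V2509 (adjusted p up to 0.0852). The other 3 comparisons had 0 of 32 called by edgeR, with 6, 3 and 3 genes at an unadjusted p under 0.05 for HFpEF+SGLT2i vs HFpEF+Veh, HFpEF+TYA-018 vs HFpEF+SGLT2i and HFpEF+SGLT2i vs non_failing, where DESeq2 called 1, 1 and 0 of the list and 117, 187 and 1129 of all 13765 genes.

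Between mice of a group, 6 of the 9 members (Ckb, Ckmt2, Slc6a8, Ak1, Ak3 and Ak4) took part in correlated pairs, and Ckm, Gamt and Gatm did not. For the 36 pairs of members, log2 CPM was taken relative to the group mean and correlated over the 38 libraries, with 2-sided p-values from 100000 permutations within groups, adjusted over the 36 pairs. By both Pearson and Spearman, 13 pairs passed, 9 positive and 4 negative. These 13 pairs, 36.1% of the 36, had an absolute r of at least 0.49, which 13.4% of all pairs of the 13765 genes also reached, so correlation of this size was common in these libraries. Ak1 and Ak3, an enzyme of the cytosol and 1 of the matrix, had r = 0.86 and rho = 0.89 (permutation p = 1e-05 for both, the smallest these permutations can give, adjusted p = 0.00012). Their r was 0.93, 0.90, 0.87 and 0.86 within the groups in the order they were introduced, 0.86 without the 2 mice farthest from the median, 0.87 without V2523 and V2532 and 0.83 on log2(TPM + 1). Ak4 followed Ak1 with r = 0.78 and rho = 0.85, and Ak3 with r = 0.80 and rho = 0.83 (adjusted permutation p = 0.00012 each). Ckmt2 rose with Ak1, at r = 0.71 and rho = 0.65 (permutation p = 4e-05, adjusted p = 0.000288 and 0.00036), and r was 0.63 without the 2 farthest mice and 0.70 without V2523 and V2532. Within the groups it ran from 0.39 in non_failing to 0.84 in HFpEF+SGLT2i.

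Slc6a8 was tied to the adenylate kinases less evenly. Its r was 0.56 with Ak1, 0.53 with Ak3 and 0.49 with Ak4, its rho 0.49, 0.42 and 0.42 (permutation p = 0.0006, 0.0017 and 0.00333 for r and 0.00283, 0.0134 and 0.0136 for rho, adjusted p at most 0.0378). Without the 2 farthest mice r was 0.53, 0.40 and 0.34, and within HFpEF+TYA-018 it was 0.015, 0.071 and -0.020.

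Ckb went against Ckmt2, Ak1, Ak3 and Ak4, which made up the negative pairs that passed. Its pair with Slc6a8 did not pass (r = -0.38 and rho = -0.30, adjusted permutation p = 0.0761 and 0.161). With Ak1 and Ak4 its r was -0.55 and -0.53 (adjusted permutation p = 0.00324 and 0.00516). With Ak3 its r was -0.62 and its rho -0.59 (permutation p = 2e-05 and 0.00031, adjusted p = 0.00018 and 0.00185), -0.57 without the 2 farthest mice, -0.56 without V2523 and V2532 and -0.44 on log2(TPM + 1). With Ckmt2 its r was -0.56 and its rho -0.58 (permutation p = 0.00068 and 0.00052, adjusted p = 0.00272 and 0.00234), and -0.57 without the 2 farthest mice. The non_failing group did not show these relations: the r of Ckb was 0.20 with Ak3 and 0.21 with Ckmt2, against -0.84 to -0.55 and -0.72 to -0.59 in the 3 HFpEF groups. Whether the groups differ in this was not tested. Ckm, as abundant as Ckmt2, passed with none of the 8 other members by both measures. Its largest r was 0.45 with Gamt, which passed by Pearson (permutation p = 0.00612, adjusted p = 0.0157) and not by Spearman (rho = 0.40, permutation p = 0.0202, adjusted p = 0.0519), and r was 0.47 without the 2 farthest mice. Its r with Ckmt2 was 0.40 (permutation p = 0.024, adjusted p = 0.0541), and rho was 0.27 (permutation p = 0.123, adjusted p = 0.211), and r was 0.37 without the 2 farthest mice.

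Properties of the libraries moved with the same genes. Over the 38 libraries and relative to group means, the share of counts from mitochondrially encoded genes had r = -0.71 with Ak1, -0.61 with Ak3, -0.66 with Ak4, -0.56 with Ckmt2 and 0.55 with Ckb. That share was 30.25% to 37.8% in non_failing (median 32.2%) and 28.5% to 36.3% in HFpEF+Veh (median 30.5%). It was 29.6% to 37.4% in HFpEF+TYA-018 (median 33.5%) and 29.2% to 39.5% in HFpEF+SGLT2i (median 31.7%). The total count had r = 0.46, 0.52, 0.50 and 0.55 with Ak1, Ak3, Ak4 and Ckmt2, and -0.55 with Ckb. The sum of 4 Schwann cell and neuron markers, all detected in every group at 14.1 to 30.3 CPM, had r = -0.62, -0.68, -0.66 and -0.48 with Ak1, Ak3, Ak4 and Ckmt2, and 0.68 with Ckb. The sum of 4 endothelial markers had r = -0.69 with Ak1, -0.56 with Ak3, -0.40 with Ak4, -0.56 with Ckmt2 and 0.44 with Ckb. Its group medians were 607 CPM in non_failing, 669 CPM in HFpEF+Veh, 540.3 CPM in HFpEF+TYA-018 and 624 CPM in HFpEF+SGLT2i, over a range of 495 to 986 CPM. The sum of 7 cardiomyocyte markers was tied less evenly to these genes, with r = 0.64 with Ak1, 0.35 with Ak3, 0.17 with Ak4, 0.44 with Ckmt2 and -0.25 with Ckb. The sum of 3 brown adipocyte markers had r = 0.55 with Ak1, 0.44 with Ak3, 0.52 with Ak4, 0.51 with Ckmt2 and -0.29 with Ckb. Its range was 16.5 to 24.3 CPM in non_failing, 23.9 to 35.1 CPM in HFpEF+Veh, 31.7 to 42.9 CPM in HFpEF+TYA-018, where 2 of the 3 were detected, and 30.7 to 41.1 CPM in HFpEF+SGLT2i. For Slc6a8, r was -0.37 with the mitochondrially encoded share and 0.52 with the total count. With the marker sums it was -0.51 (Schwann cell and neuron), -0.55 (endothelial), 0.50 (cardiomyocyte) and 0.22 (brown adipocyte). These are descriptions, and their part in the pattern was not tested.

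**Figure D4:**
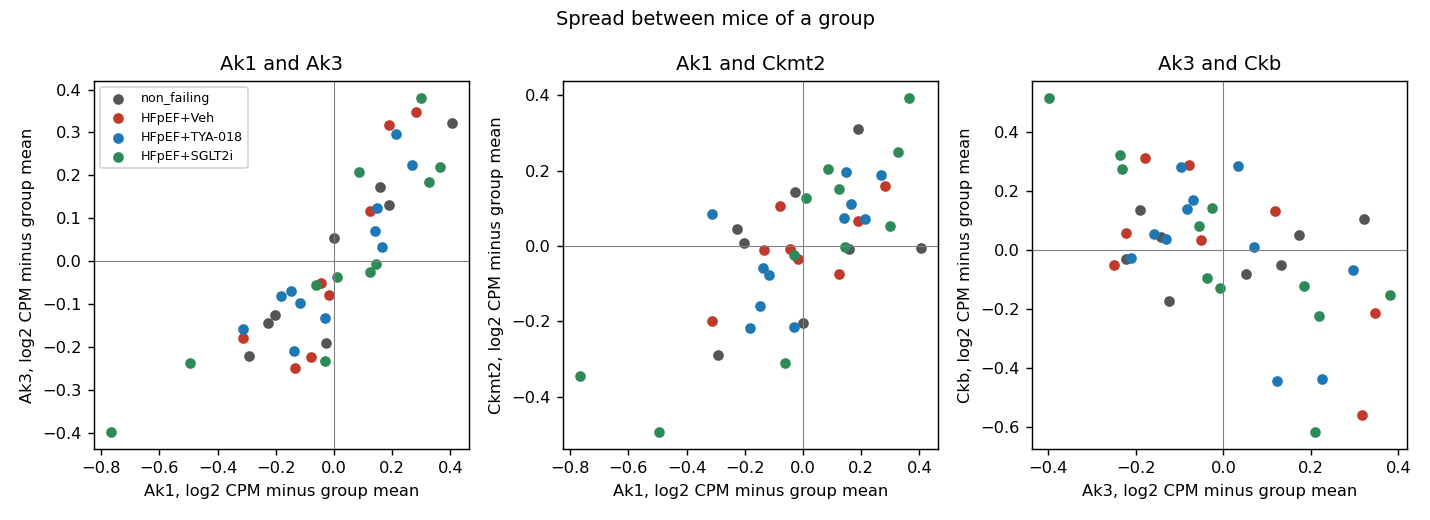
Log2 CPM relative to the group mean for Ak1 and Ak3, Ak1 and Ckmt2, and Ak3 and Ckb, with 1 point per mouse and a colour per group. Ak3 and Ckmt2 climb with Ak1 (r = 0.86 and 0.71), and Ckb declines with Ak3 (r = -0.62).

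The genes most like each member were read from the correlation of log2 CPM over the 38 libraries with the 10922 other genes of at least 1 log2 CPM on average (10923 for Gatm), as a description. Ak1 was closest to Uqcc1 (r = 0.95), Rxrg (0.94) and Ndufa10 (0.94), where Uqcc1 is an assembly factor of respiratory complex III and Ndufa10 a subunit of complex I. Ak3 was closest to Ppif (0.92), Dnaja3 (0.92) and Amacr (0.92), and Ak4 to Fem1a (0.94), Rcan2 (0.93) and Casq2 (0.93). Among the genes closest to Ckmt2 were Suclg1 (0.92), a subunit of succinate-CoA ligase, and Pkm (0.89). Ckm was closest to Ndufa6 (0.88), Rangrf (0.87) and Ndufs5 (0.87), of which Ndufa6 and Ndufs5 belong to complex I. Ckb stood with other genes: Loxl3 (0.80), a lysyl oxidase of the matrix, Gngt2 (0.78) and Fxyd5 (0.78). Slc6a8 was closest to Lrrc2 (0.78), Optn (0.78) and 9630033F20Rik (0.75). The nearest genes of the creatine synthesis enzymes had lower values, Gamt with Lsm7 (0.73), Mgmt (0.72) and Lgals1 (0.72), and Gatm with Fam129a (0.67), Chic2 (0.66) and Pcdh19 (0.64). Relative to group means, all of these values lay between 0.62 and 0.96.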

How the data were processed

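Left ventricle RNA was sequenced from 38 mice, 1 library each, and grouped by the sample titles. The authors trimmed reads with fastp, quantified them with salmon 1.6.0 on GENCODE transcripts of GRCm38 and summed them to genes with tximport, per the methods of the study. The labels name hg38 as the build. The deposited expected counts estimate the reads of each gene and carry fractions where reads were divided between transcripts. The deposited TPM values were scaled by the authors within each library, and a deposited table holds effective lengths in bases. Labels and methods also differ on sex, read length and read number, and the series title and the paper on the length of treatment. None of these entered a test. Reads of near-identical transcripts are divided by a model, so such genes are less certain.

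Expected counts were rounded, filtered with filterByExpr and scaled with TMM. Quasi-likelihood models (edgeR 4.0.16, R 4.3.3) were fitted to the 4 groups together, with no covariate and adjustment over 13765 genes. CPM are expected counts relative to the TMM-scaled library, and log2 CPM used a prior count of 2. The alternatives were limma 3.58.1 on log2(TPM + 1) after a filter modelled on the study's (a count in 90% of libraries, mitochondrially encoded genes left out and TPM rescaled, without its restriction to protein-coding genes), DESeq2 1.42.0, library size alone, no low-count filter, a length offset, only the groups compared, leaving out V2523 and V2532, and leaving out each library. The tests were tried on simulated data for HFpEF+Veh vs non_failing, with 50 genes changed at each fold. There edgeR recovered 12% of changes of 1.25-fold, 60% of 1.5-fold and 86% of 2-fold. A count of 0 members called therefore does not exclude changes of 1.25-fold or 1.5-fold, and some changes of 2-fold were also missed. The changed genes were drawn from those with an expected count above 50 at the mean library size. The 38 libraries held about 21451600 to 59280400 counts, and the tables had 0 unmapped columns.

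The members, the pathway list and the marker lists were chosen by function with earlier results of these data known. The genes named beside the members are those called in the pathway list and the 3 genes most correlated with each member, and some of these genes are not reported here. Each mouse is 1 replicate, and no sample pairs exist. Promoter windows came from RefSeq on GRCm38.p6 and coordinates from GENCODE M21.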

Additional observations from a re-analysis of the deposited data

Results flagged for a closer look

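Among 18 sets of 8 libraries (9 genes in non_failing and in HFpEF+Veh), 1 library lay far from the rest of its group, where chance gives about 1 in 20. Ckm in HFpEF+Veh V2532 was 1106.5 CPM, against 1385 to 1586 CPM in the other 7 vehicle mice, and the gap to its nearest neighbour was 0.625 of the group's range on the log2 scale. The same library had the highest sum of fast skeletal muscle markers (183 CPM). The groups of 11 libraries were not examined in this way.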

How the results depend on the processing

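No paired analysis was possible because mouse numbers differ in every group. Of 378 member differences under 7 alternatives, 349 kept their sign, and members called stayed at 0 except for 1 (Ak3) in HFpEF+Veh vs non_failing without V2523 and V2532. Leaving out each library gave 0 to 1 members called in HFpEF+TYA-018 vs non_failing (Ckmt2, without non_failing V2508) and 0 elsewhere. The 29 that reversed were log2 fold changes of at most 0.16 in size as reported, and the cause was not tested. Under limma on log2(TPM + 1) they were 0.094 (Gatm) and 0.030 (Ak1) in HFpEF+Veh vs non_failing, -0.0085 (Ckm), -0.083 (Slc6a8) and -0.17 (Gamt) in HFpEF+TYA-018 vs HFpEF+Veh, -0.041 (Ckm) in HFpEF+SGLT2i vs HFpEF+Veh, -0.020 (Ckmt2) and -0.039 (Ak3) in HFpEF+TYA-018 vs HFpEF+SGLT2i, -0.019 (Ckm) in HFpEF+TYA-018 vs non_failing and 0.0064 (Ckb) in HFpEF+SGLT2i vs non_failing. Under library size alone, in the same order of comparisons, they were 0.075 (Gatm), -0.10 (Slc6a8), -0.12 (Gamt), -0.035 (Ckm), -0.0032 (Slc6a8), -0.017 (Ckmt2), -0.0026 (Ak3) and -0.036 (Ckm). This scaling moved the median of all genes in HFpEF+TYA-018 vs HFpEF+Veh to -0.14, and 25 of its 1096 calls were higher, against 115 of 266 with TMM. Under a length offset they were 0.023 (Gatm), -0.034 (Ak4), -0.032 (Gamt) and 0.0030 (Ckb), and with no filter 0.0044 (Gatm). Without V2523 and V2532 they were 0.073 (Gatm), -0.16 (Ak4), -0.019 (Ckmt2) and -0.022 (Slc6a8) in HFpEF+Veh vs non_failing, -0.017 (Gamt) in HFpEF+TYA-018 vs HFpEF+Veh and -0.021 (Ckm) in HFpEF+SGLT2i vs HFpEF+Veh. Leaving out 1 library reversed 11 of 54 differences: -0.060 to 0.088 (Ak4), -0.020 to 0.067 (Ckmt2), -0.076 to 0.088 (Gatm) and -0.028 to 0.092 (Slc6a8) in HFpEF+Veh vs non_failing, -0.043 to 0.085 (Gamt) and -0.020 to 0.10 (Slc6a8) in HFpEF+TYA-018 vs HFpEF+Veh, -0.0029 to 0.067 (Ckm) in HFpEF+SGLT2i vs HFpEF+Veh, -0.011 to 0.075 (Ckmt2) in HFpEF+TYA-018 vs HFpEF+SGLT2i, -0.055 to 0.030 (Ak3) and -0.011 to 0.064 (Ckm) in HFpEF+TYA-018 vs non_failing and -0.068 to 0.042 (Ckb) in HFpEF+SGLT2i vs non_failing. Over all genes, calls ranged with the 7 alternatives from 42 to 1096 in HFpEF+TYA-018 vs HFpEF+Veh (266 in the reported fit), from 0 to 457 in HFpEF+SGLT2i vs HFpEF+Veh (117), from 344 to 916 in HFpEF+Veh vs non_failing (433), from 597 to 1272 in HFpEF+TYA-018 vs non_failing (1017) and from 527 to 1129 in HFpEF+SGLT2i vs non_failing (888). Leaving out V2530 or V2547 gave 167 or 177 calls in HFpEF+TYA-018 vs HFpEF+Veh. Among pathway genes, on alternatives added after seeing the data, Nme3 stayed called throughout, DESeq2 called 4 of 32 in HFpEF+TYA-018 vs HFpEF+Veh against 1 (402 against 266 of all genes), Prkag2 in HFpEF+TYA-018 vs non_failing did not pass with limma (adjusted p = 0.1515), library size alone (0.185), no filter (0.0652), the length offset (0.0540) or only the groups compared (0.0621), and in HFpEF+Veh vs non_failing with no filter (0.0562) or the length offset (0.0618), Nt5e was lost without non_failing V2508 or V2509, and leaving out 1 library ended the Prkag2 call in HFpEF+Veh vs non_failing in 19 of 38 fits and the Slc25a4 calls in 5 (HFpEF+Veh vs non_failing) and 1 (HFpEF+TYA-018 vs HFpEF+Veh, V2530). The Prkag2 difference in HFpEF+Veh vs non_failing was 0.32 as reported, with no filter and with the length offset. Depth limits Gatm and Gamt most, at medians of 52.5 and 156 counts.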

Other observations

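Several further isoforms of both enzyme families were near silent in these hearts. Ckmt1, the ubiquitous mitochondrial creatine kinase, had a mean of 0.452 TPM, and Ak5, Ak7, Ak8 and Ak9 had means of 0.0206, 0.0108, 0.0164 and 0.0121 TPM. None of these passed the filter on low counts. Ak6 had 26.8 TPM, above Ak3 at 17.5 TPM. Ampd1, the AMP deaminase of skeletal muscle, had a mean of 0.0290 TPM, against 5.85 TPM for Ampd3. Slc25a4 was the most abundant gene of the wider list at 2499 TPM, followed by Slc25a3, the mitochondrial phosphate carrier, at 711 TPM and Nme2 at 547 TPM.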
